A study of Caenorhabditis elegans with 4 samples.

Results

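FOS-1 is the Fos-family bZIP transcription factor of Caenorhabditis elegans, a DNA-binding protein of the AP-1 type. The regions described here are the FOS-1::GFP peaks of chromosome IV that lie outside its piRNA domains. They were chosen by position alone: the midpoint of a peak lay below 4500 kb (the left arm), between 7000 and 13500 kb (the middle stretch), or above 17200 kb (the right tip). The authors merged the reads of both ChIP libraries for their combined list of 6095 peaks, of which 743 met this rule, with 453 in the middle stretch, 272 in the left arm and 18 in the right tip. The 2 piRNA domains, from 4500 to 7000 kb and from 13500 to 17200 kb, held the other 162 and 133 peaks of the chromosome.

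Worm autosomes have no single centromere. Their centres are rich in widely expressed genes and recombine little, while their arms hold more repeats, more recently arisen genes and more silent chromatin. Chromosome IV also carries most of the genes for piRNAs, the small germline RNAs that guide silencing of foreign sequences, and these genes sit in broad clusters. The best studied role of FOS-1 is later in larval life, when the anchor cell breaches the basement membrane between gonad and vulva.

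The ChIP group consisted of 2 libraries of FOS-1::GFP chromatin, and the input group of 2 libraries of chromatin that had not been precipitated. Both came from fed L1 (first-stage larval) hermaphrodites of strain OP304, kept at 20 °C, with 2% formaldehyde as crosslinker, and the antibody was a goat polyclonal against EGFP. All animals carried the unc119(ed3) mutation and the transgene wgIs304(fos-1::TY1 EGFP FLAG;unc119), introduced by bombardment, and the labels list no mutation of the native fos-1 gene. Whole larvae were used, so a peak cannot be assigned to a cell type. The ChIP libraries held 3763795 (replicate 1) and 2961912 (replicate 2) uniquely mapped reads, and the input libraries 2762470 and 2799514. In the ChIP libraries these were 59.7% of 6307945 reads in replicate 1 and 49.3% of 6005290 in replicate 2. The replicate 1 list held 4032 peaks and the replicate 2 list 1987. Separate cultures are not stated for the replicates, so their spread may be technical. Positions are in WormBase WS220, and none of the peaks whose structure changed when the lists were carried to that build lies on IV.

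The left arm of IV held peaks at a density not far below that of its middle stretch. The other autosomes had a larger drop in density towards the left arm. It was largest on II in each list, and smallest on I in the combined list but on III in both replicate lists. In the combined list the middle stretch had 69.7 peaks per Mb (exact 95% Poisson interval 63.4 to 76.4) and the left arm 60.4 (53.5 to 68.1). In the replicate 1 list the densities were 52.8 per Mb in the middle stretch and 43.8 per Mb in the left arm. In the replicate 2 list they were 23.2 per Mb in the middle stretch and 25.1 per Mb in the left arm, so that the order was turned round. The combined density ratio of middle to left arm was 1.15 (0.99 to 1.35), which did not pass the test (exact binomial test, two-sided, adjusted p = 0.0964). The p-values of 12 tests were adjusted together by the Benjamini-Hochberg method, with a threshold of 0.05. Further adjusted values below, for 1 replicate list, fewer chromosomes or other settings, lie outside these 12 tests. Each took the place of its main test among the 12, so these values were not adjusted for one another. These tests treat peaks as independent, although peaks occur in clusters, which can make p-values too small, and all intervals cover counting error only. Where IV is set against other autosomes, the units are chromosomes, and neither p-values nor intervals contain the spread between chromosomes.

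The other autosomes were measured over stretches at the same relative positions, namely from 40.1% to 77.3% of the chromosome for the middle and the first 25.8% for the left arm. There the ratio of middle to left arm in the combined list was 1.43 on I, 1.62 on III, 2.06 on V and 2.29 on II, all above the 1.15 of IV. Counts were 453 and 272 peaks in the middle and left arm of IV, against 1859 and 725 on the other 4 autosomes, whose pooled density ratio was 1.78. The ratio on IV was 0.65 of theirs (0.54 to 0.78, Fisher's exact test, two-sided, adjusted p = 1.73e-05), a test added after the densities had been seen. This test counts peaks and leaves out the spread of 1.43 to 2.29 between the other chromosomes. In the replicate 1 list the ratio was 1.21 on IV and 1.62 to 3.27 on the others, and in the replicate 2 list it was 0.93 on IV and 1.47 to 2.19 on the others. IV thus had the lowest ratio of the 5 autosomes in each list. Against chromosome I alone the difference missed the threshold in the combined list (a ratio 0.81 of that on I, Fisher's exact test, adjusted p = 0.0964).

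**Figure D1:**
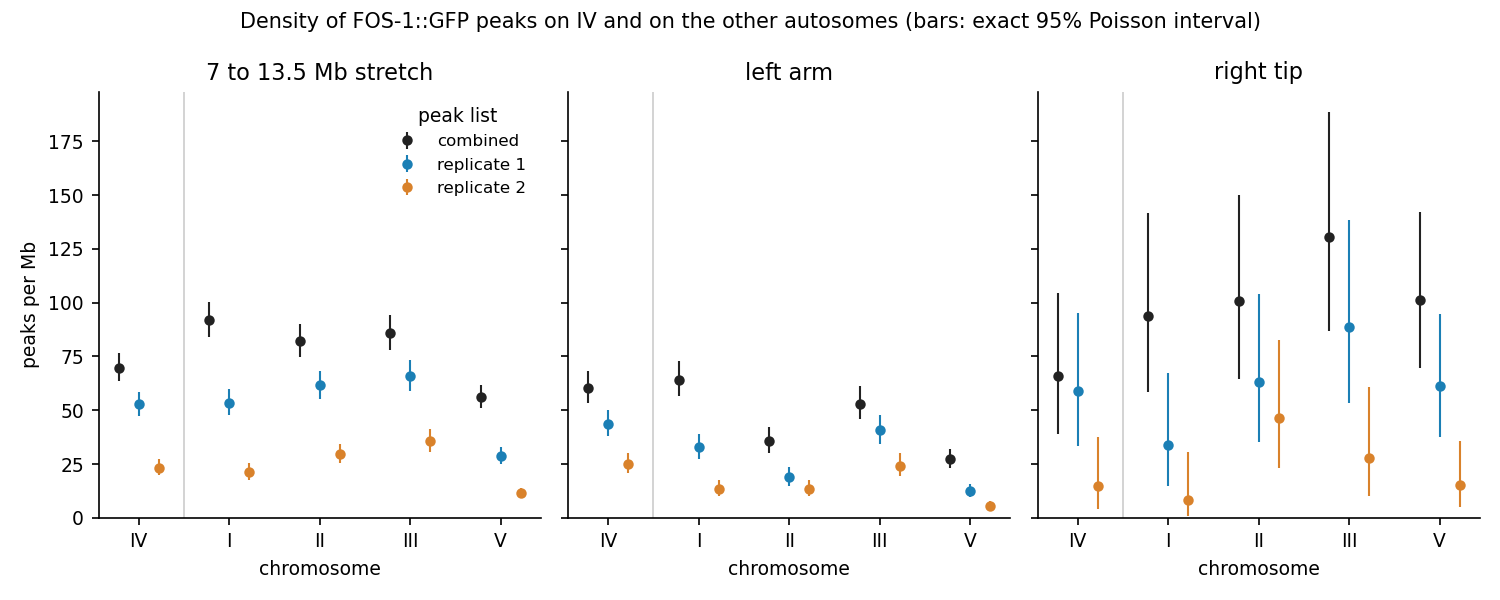
Peaks per Mb (y axis) in 3 stretches of chromosome IV and in the stretches of chromosomes I, II, III and V at the same relative positions (x axis), with points for the combined, replicate 1 and replicate 2 lists and bars for exact 95% Poisson intervals. The left arm of IV, at 60.4 combined peaks per Mb, sits close to its own middle stretch at 69.7, while the arms of II and V lie far below their middles.

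Against the other autosomes pooled, the left arm accounted for most of this difference in ratio. It held 272 combined peaks on 4.5 Mb, a density 1.4-fold (1.21 to 1.61) that of the pooled left arms of the other autosomes at 43.3 per Mb (exact binomial test, adjusted p = 2.77e-05). The other left arms were far apart from each other in the combined list, at 64.2 peaks per Mb on I, 53.0 on III, 35.9 on II and 27.3 on V. The pooled comparison therefore rested on II and V: against I alone the ratio was 0.94, and against III alone it was 1.14 and not past the threshold (exact binomial test, adjusted p = 0.231). Against I and III the middle stretches differed more than the left arms, with 69.7 combined peaks per Mb on IV, 91.9 on I and 85.9 on III. In the replicate lists the left arm of IV was the densest of the 5 left arms. It had 43.8 peaks per Mb in replicate 1, against 40.6 on III, 32.7 on I, 18.8 on II and 12.4 on V, and 25.1 per Mb in replicate 2, against 24.2 on III and 13.48 on II, 13.4 on I and 5.39 on V. The lead over III in both replicate lists was well within the counting error. With peaks no more than 2000 bp apart joined, the left arm of IV still had 1.29-fold the pooled density of the other left arms (exact binomial test, adjusted p = 0.0084).

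In the combined list the middle stretch of IV was less dense than the middles of I, II and III, and in the replicate lists its density was close to the pooled value. Its 69.7 combined peaks per Mb stood against 91.9 on I, 85.9 on III, 82.2 on II and 56.2 on V, or 76.9 pooled. The ratio to the pooled value was 0.91 (0.82 to 1.01) and missed the threshold (exact binomial test, adjusted p = 0.0964), but against II and III alone it was 0.83 (exact binomial test, adjusted p = 0.00347). In replicate 1 the middle of IV had 52.8 peaks per Mb, against 50.1 on the others pooled (28.8 to 65.8 on single chromosomes). In replicate 2 it had 23.2, against 23.1 pooled (11.4 to 35.5). The ratios of 1.05 in replicate 1 and 1.01 in replicate 2 turned the direction of the combined value, and neither passed the threshold. Within IV, the domain from 4500 to 7000 kb had 64.8 combined peaks per Mb, between the densities of the stretches on its sides. The domain from 13500 to 17200 kb had 35.9 per Mb, well below both.

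Taken over all 3 stretches, IV outside the piRNA domains had 65.9 combined peaks per Mb, against 61.1 on the whole of I, II, III and V. That difference was not past the threshold in the combined list (ratio 1.08, 0.996 to 1.17, exact binomial test, adjusted p = 0.0964), while it was in replicate 1 (49.3 against 38.4 per Mb, exact binomial test, adjusted p = 2.3e-06) and in replicate 2 (23.8 against 18.8 per Mb, exact binomial test, adjusted p = 0.00238). Against II and III alone the combined ratio was 0.95. The replicate lists also had IV below II and III, at 49.3 against 50.7 per Mb in replicate 1 and 23.8 against 27.8 in replicate 2. The replicate calls against the pool were therefore not calls against every other autosome. The sets are unlike in position, since most of the right arm of IV is left out while the other chromosomes are whole. With its piRNA domains included, IV had 59.4 combined peaks per Mb, below the 61.1 of the others, but 44.4 in replicate 1 and 21.6 in replicate 2, above the 38.4 and 18.8 of the others. The value for IV therefore lay inside the range of the single autosomes, which ran from 38.9 per Mb on V to 75.7 per Mb on III.

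Peaks were found in every 0.5-Mb bin of both stretches. The 13 bins of the middle stretch held 25 to 45 combined peaks (median 37) and the 9 bins of the left arm 25 to 39 (median 30). The fullest bin of the middle stretch ran from 11 to 11.5 Mb, with 45 combined, 37 replicate 1 and 16 replicate 2 peaks. In the left arm the outermost bin, from 0 to 0.5 Mb, and the innermost, from 4 to 4.5 Mb, each held 39 combined peaks. These bins differed in their overlap with the replicates: 8 of the 39 outermost peaks (20.5%) were found in both replicate lists, against 17 of the 39 innermost (43.6%). The share over the whole left arm was 37.9%, and over the whole combined list 29.1%. It did not rise steadily inwards, since the bin from 0.5 to 1 Mb had the highest share, 14 of 25 (56.0%).

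**Figure D2:**
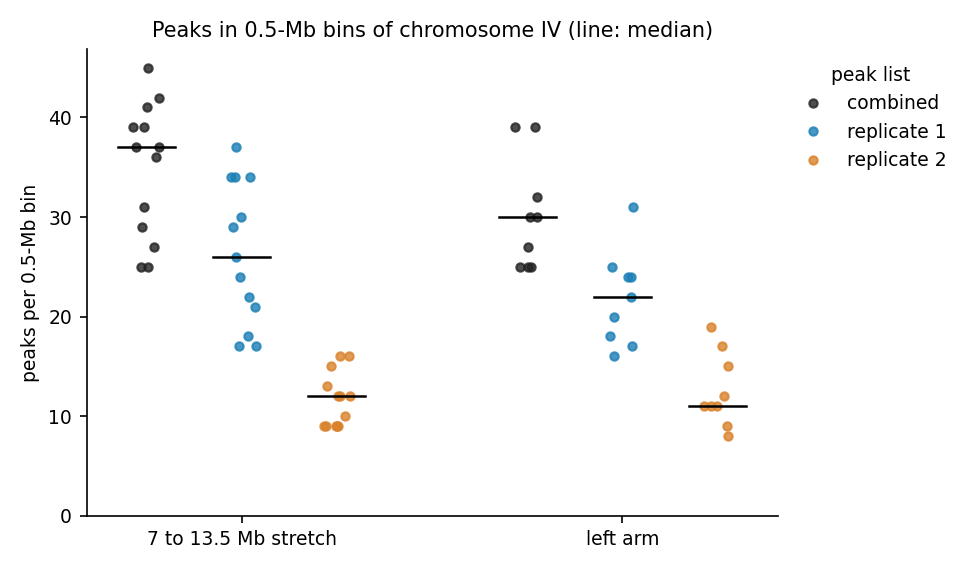
Number of peaks in each 0.5-Mb bin (y axis) of the middle stretch and of the left arm of IV (x axis), with 1 point per bin, a colour per peak list and a black line at the median. Combined counts run from 25 to 45 in the middle stretch and from 25 to 39 in the left arm, and the bins of the 2 stretches overlap in every list.

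Among 100-kb windows, the densest of the middle stretch held 15 combined peaks and lay from 7 to 7.1 Mb, where replicate 1 had 14 peaks and replicate 2 had 6, and from 11 to 11.1 Mb, where they had 12 and 9. The densest of the left arm, from 4 to 4.1 Mb, held 17 combined peaks, with 16 in replicate 1 and 8 in replicate 2. Empty windows were rare, 2 of 65 in the middle stretch and 2 of 45 in the left arm. The longest gap without a combined peak was 175 kb in the middle stretch (12843324 to 13018211) and 117 kb in the left arm (4097151 to 4214617). Neither replicate list had a peak in these gaps. The densest window of the left arm and its longest gap were thus direct neighbours.

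Spacing was similar in both stretches. The median gap between neighbouring combined peaks was 6055 bp in the middle stretch (quartiles 1381 and 19653) and 7418 bp in the left arm (1656 and 23534). Gaps of 2000 bp or less made up 147 of 452 (32.5%) in the middle stretch and 78 of 271 (28.8%) in the left arm. The difference of 3.74 percentage points (-3.47 to 10.7) did not pass the test (Fisher's exact test, adjusted p = 0.349). When such neighbours were joined, the middle stretch had 306 regions, of which 62 were pairs and 31 held 3 or more peaks. The left arm had 194, of which 29 were pairs and 18 held 3 or more.

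The longest runs were alike in size. In the middle stretch, 9 combined peaks followed each other within 11950 bp, from 10499855 to 10511804, with 8 peaks in replicate 1 and 3 in replicate 2. In the left arm, 9 combined peaks followed each other within 12671 bp, from 4019090 to 4031760, with 9 peaks in replicate 1 and 3 in replicate 2. In each run 3 of the 9 combined peaks were found in both replicate lists. No gap in the combined list was shorter than 200 bp.

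Median peak widths were close in the combined list. The median width was 314 bp in the middle stretch (quartiles 204 and 432) and 315 bp in the left arm (192 and 437), and the pooled other autosomes had a median of 312 bp. Peaks of 500 bp or wider were 79 of 453 (17.4%) in the middle stretch and 53 of 272 (19.5%) in the left arm, a difference of -2.05 percentage points (-8.26 to 3.88) that did not pass the test (Fisher's exact test, adjusted p = 0.488). The direction of this share was not stable. In replicate 1 it was 15.5% in the middle stretch and 14.7% in the left arm, and in replicate 2 it was 14.6% in the middle stretch and 7.08% in the left arm. With 300 bp as the limit, the combined shares were 54.3% in the middle stretch and 52.6% in the left arm, and none of these differences passed the threshold. Peaks narrower than the 36-bp reads numbered 18 (3.97%) in the middle stretch and 14 (5.15%) in the left arm. Together the peaks covered 2.54% of the middle stretch and 2.13% of the left arm. The widest were 2099 bp at 10935125 to 10937223 and 2000 bp at 3232731 to 3234730.

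The q value of a peak is the authors' own, from the comparison of ChIP with input reads, and a low q marks a strong call. The median q was 0.000102 in the middle stretch and 4.37e-05 in the left arm, against 9.18e-05 over the other autosomes. Among the lowest 25% of q values in the whole list were 107 of 453 (23.6%) in the middle stretch and 75 of 272 (27.6%) in the left arm. This difference of -3.95 percentage points (-10.8 to 2.74) did not pass the test (Fisher's exact test, adjusted p = 0.301). Among the left arms, this class took 31.4% of peaks on III, 27.7% on I, 17.7% on V and 15.6% on II. The left arm of IV was thus near the arms of I and III in this measure.

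**Figure D3:**
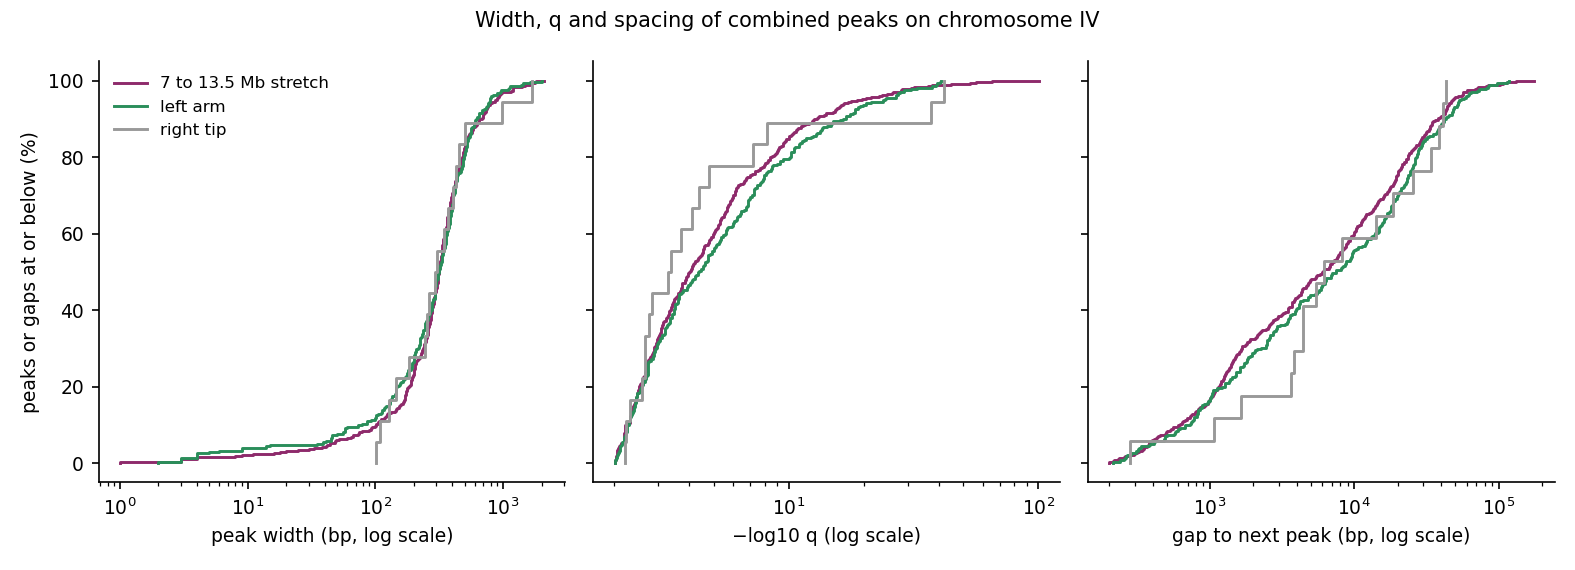
Cumulative share (y axis, %) of combined peaks of IV by width, by −log10 q and by gap to the next peak (x axes, log scale), with a line each for the middle stretch, the left arm and the right tip. The lines of the middle stretch and left arm nearly coincide for width, with medians of 314 and 315 bp, and the middle stretch has the shorter median gap, 6055 against 7418 bp.

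The middle stretch held the strongest peak of the chromosome, but below the first few the stretches were close. That peak lay at 8431407 to 8433183 (1777 bp) and had a q of 4.59e-101 in the combined list, 2.7e-69 in replicate 1 and 7.17e-32 in replicate 2. It ranked 16th of all 6095 combined peaks, 15th in replicate 1 and 21st in replicate 2. Next in the middle stretch came the peaks at 11592899 to 11594718 (rank 35, q of 1.15e-65), 10252208 to 10253692 (rank 48, q of 5.43e-57), 10935125 to 10937223 (rank 58, q of 8.9e-54) and 13240377 to 13241002 (rank 83, q of 1.81e-45). The peak at 13240377 was the narrowest of the 5, at 626 bp, and ranked 47th in replicate 2.

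The other 5 of the 10 strongest middle peaks began at 11082650, 10821077, 9444372, 8510500 and 8428282, with q between 2.57e-38 and 1.23e-31. The last of these lay 2229 bp before the strongest peak.

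In the left arm the strongest peak lay at 654375 to 655333 (959 bp), with a q of 3.06e-41 in the combined list, 2.2e-31 in replicate 1 and 3.79e-21 in replicate 2. It ranked 102nd in the combined list and 45th in replicate 2. Behind it came the peaks at 1659000 to 1659516 with 4.65e-41, 3232731 to 3234730 with 6.43e-40, 2388741 to 2389364 with 9.3e-40 and 2219099 to 2220712 with 3.09e-38, all combined q. All 5 lay within 20 ranks of each other, from 102 to 120, where the first 5 of the middle stretch ran from 16 to 83.

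The other 5 of the 10 strongest left-arm peaks began at 1094166, 4390481, 4445687, 3384327 and 384882, with q between 1.86e-33 and 3.89e-28. Of these, the peak at 3384327 to 3385719 overlapped 2 peaks in each replicate list and had its lowest replicate q at 1.55e-09 and 1.4e-06. It was therefore the weakest of the 20 named peaks in both replicates, although it was 1393 bp wide. The third widest peak of the left arm, at 4405217 to 4406660 (1444 bp), had a q of only 6.13e-15.

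**Figure D4:**
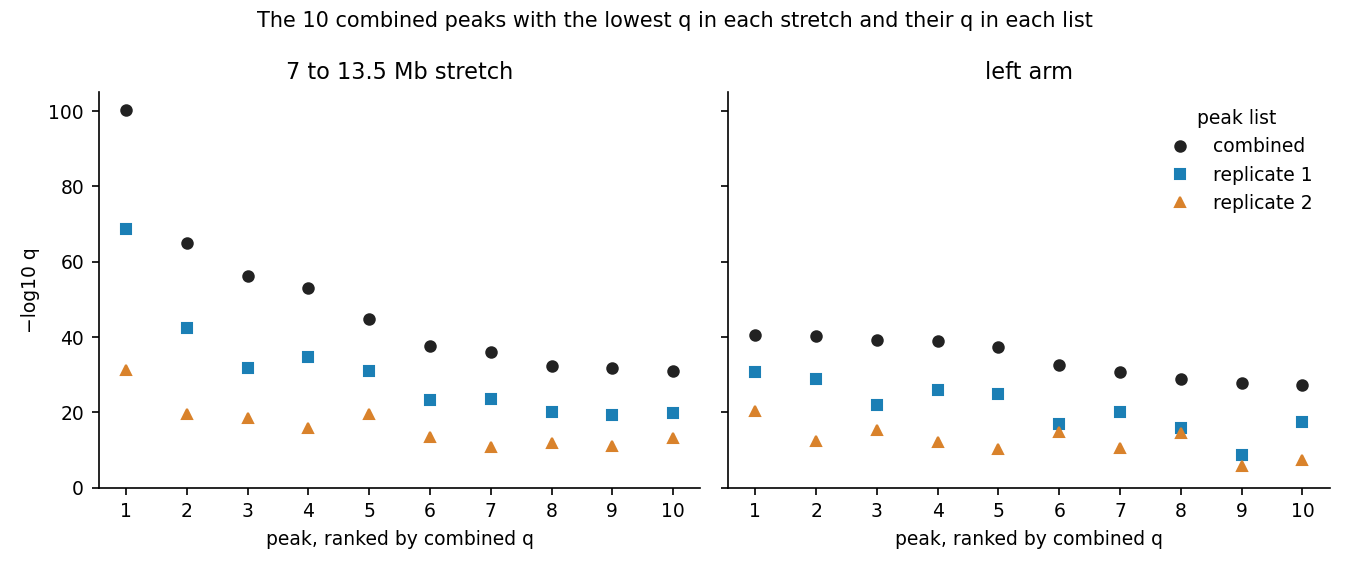
The −log10 q (y axis) of the 10 strongest combined peaks in the middle stretch and in the left arm (x axis, ranked by combined q), with the value in each of the 3 lists. The combined values run from 100.3 down to 30.9 in the middle stretch and from 40.5 down to 27.4 in the left arm, and each peak has a higher value in replicate 1 than in replicate 2.

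All 20 of these peaks overlapped a peak in both replicate lists, and in all 20 the q was lower in replicate 1, the library with more uniquely mapped reads. They were chosen by q from a list called on the reads of the same libraries, so this overlap is no independent support. Among the lowest 25% of q values, 91.6% of peaks in the middle stretch and 97.3% in the left arm overlapped both. Over the whole combined list the share was 29.1%. Of the 20 strongest peaks of the whole of IV, 7 lay in the middle stretch, 5 in the left arm, 2 in the right tip and 6 in the piRNA domains. Of the 100 strongest, 37 lay in the middle stretch, 29 in the left arm, 2 in the right tip, and 13 and 19 in the piRNA domains. All 1038 combined peaks of IV were spread over the same parts as 453, 272, 18, 162 and 133. The counts of strong peaks were not tested against this spread.

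Combined peaks of IV outside the piRNA domains were found again in the replicates more often than those of the other autosomes pooled, but not more often than those of II and III. Of the 743 peaks, 246 (33.1%, exact 95% interval 29.7 to 36.6) overlapped peaks of both replicate lists, where the share over the whole combined list was 29.1%. On I, II, III and V together 1089 of 3972 did (27.4%), a difference of 5.69 percentage points (2.03 to 9.47, Fisher's exact test, adjusted p = 0.00565). The single chromosomes had 36.6% (III), 33.2% (II), 20.3% (I) and 18.7% (V). Against II and III alone the difference was -1.84 points and not past the threshold (Fisher's exact test, adjusted p = 0.427). The piRNA domains of IV had similar shares, with 51 of 162 peaks (31.5%) in the left domain and 50 of 133 (37.6%) in the right domain. The part outside was not tested against them, so the higher share is not shown to be particular to that part of IV. The combined list was called on the reads of the same libraries, so the share found in both replicates is no independent measure of agreement.

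Within IV the left arm had the higher share. In the middle stretch 139 of 453 peaks (30.7%, 26.5 to 35.2) were found in both replicates, and in the left arm 103 of 272 (37.9%, 32.1 to 43.9). The difference of -7.18 points (-14.6 to 0.13) missed the threshold (Fisher's exact test, adjusted p = 0.0964). Counted on overlap with the replicate 1 list alone, the shares were 69.1% in the middle stretch and 68.8% in the left arm. Peaks found in neither replicate made up 28.7% of the middle stretch and 29.0% of the left arm, against 35.8% of the whole combined list.

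Set against the same relative positions elsewhere, the left arm of IV had 37.9% of its peaks in both replicates and the other left arms 26.6% (193 of 725, Fisher's exact test, adjusted p = 0.00318, added after the data were seen). The other left arms had 42.6% on III, 28.4% on II, 20.1% on I and 15.6% on V, and against II and III pooled the call was lost (36.5%, Fisher's exact test, adjusted p = 0.735). The middle stretch had 30.7% and the other middles 26.9% (500 of 1859, Fisher's exact test, adjusted p = 0.152). Counted on replicate 1 alone, the shares were 69.1% in the middle stretch and 61.3% in the other middles, which passed the threshold (Fisher's exact test, adjusted p = 0.00478). This pooled value hid a wide spread. Peaks found in neither replicate were 28.7% in the middle of IV, 28.3% on II and 25.2% on III, but 43.3% on I and 49.9% on V. The middle of IV was thus close to those of II and III, and the replicate 1 share was not tested against them alone.

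**Figure D5:**
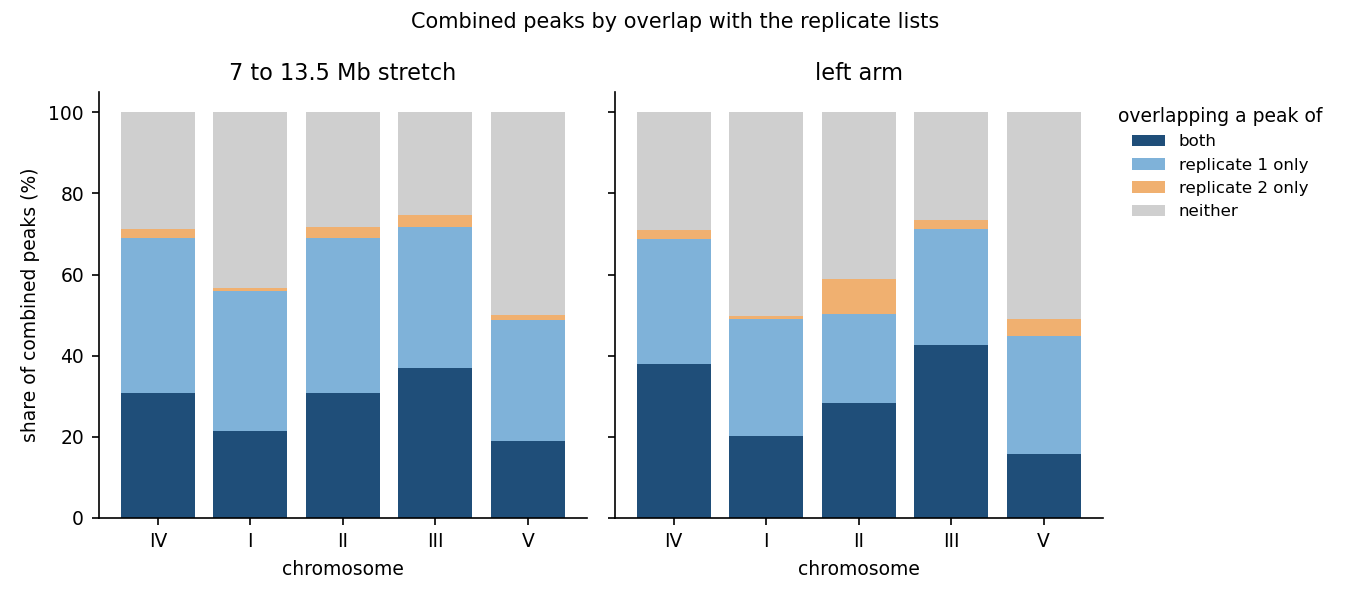
Share of combined peaks of each stretch (y axis, %) that overlapped a peak of both replicate lists, of 1 of them or of neither, in the middle stretch and left arm of IV and at the same relative positions of I, II, III and V (x axis). IV resembles II and III in the middle, with 30.7%, 30.8% and 37.0% in both, and in the left arm IV (37.9%) lies between II (28.4%) and III (42.6%).

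The class of a peak followed its q closely in both stretches. Combined q and replicate lists came from the same reads, so this link is no independent evidence. Of peaks among the lowest 25% of q values, 98 of 107 (91.6%) in the middle stretch and 73 of 75 (97.3%) in the left arm were found in both replicates. In the next 25% the shares were 32.5% (39 of 120) in the middle stretch and 40.0% (28 of 70) in the left arm. Among the highest 25% none was found in both: 0 of 115 in the middle stretch, with an exact 95% upper limit of 3.16%, and 0 of 62 in the left arm, with a limit of 5.78%. The other autosomes, pooled at the same relative positions, had the same pattern. Their lowest 25% had 83.3% in the middles and 81.8% in the left arms. The next 25% had 21.7% and 26.6%, and the highest 25% had 0 of 431 and 0 of 199. Peaks found in both replicates had median widths of 426 bp (middle stretch) and 422 bp (left arm), and those found in neither had 176 bp and 147 bp.

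Where both replicates had called a peak, their rankings by q agreed in part. Over the 139 such peaks of the middle stretch, Spearman's rho between the replicates' q values was 0.68, and over the 103 of the left arm it was 0.79. These are correlations across peaks of the same pair of libraries and are given as a description. The replicate 1 q was the lower in 118 of 139 peaks of the middle stretch and in 95 of 103 of the left arm.

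Seen from the replicate lists, 140 of the 151 replicate 2 peaks of the middle stretch (92.7%) and 105 of the 113 of the left arm (92.9%) overlapped a replicate 1 peak. In the other direction 138 of 343 replicate 1 peaks (40.2%) of the middle stretch and 103 of 197 (52.3%) of the left arm overlapped a replicate 2 peak. Replicate 2 had 0.33 peaks for each combined peak in the middle stretch and 0.42 in the left arm, while replicate 1 had 0.76 and 0.72. The left arm was thus the better represented of these stretches in replicate 2, and by a small margin the less well represented in replicate 1.

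The right tip, the last 0.272 Mb up to the last peak of the chromosome, held 18 combined, 16 replicate 1 and 4 replicate 2 peaks. Its 66.1 combined peaks per Mb (39.2 to 104.4) compared with 93.7 to 130.4 per Mb at the corresponding tips of the other autosomes. In replicate 1 it had 58.7 per Mb, against 34.1 on I and 61.4 to 88.5 on the others, and in replicate 2 it had 14.7, against 8.51 on I and 15.3 to 46.2 on the others. The tip of IV was thus the least dense of the 5 in the combined list only, and that of I in each replicate list. With under 20 peaks no test was made, and the intervals overlap. The median width was 298 bp and the median q 0.000474, a weaker median than in the other stretches of IV.

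A few strong peaks of the tip stood beside many weak ones. The strongest, at 17277180 to 17278855 (1676 bp), had a q of 1.18e-42 in the combined list, 4.99e-32 in replicate 1 and 8.33e-15 in replicate 2, and ranked 97th in the combined list, ahead of every peak of the left arm. The second, at 17249681 to 17250051 (371 bp), had a q of 8.54e-38, 1.04e-25 and 5.83e-15 in the same lists. The strongest was followed within 4499 bp by the peaks at 17279921 to 17280421 (q = 7.9e-05) and 17280699 to 17281678 (q = 6.58e-09). The peak at 17280699 was also found in both replicates.

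The fourth peak found in both replicates, at 17461253 to 17461678, was far weaker, with a q of 4.41e-05. On the side of the strongest peaks of the tip lay those at 17210778, 17268625 and 17285298. They were found in replicate 1 only, with q of 1.64e-05, 0.000414 and 6.24e-08. Between 17285751 and 17461253 there were 7 combined peaks, at 17328913, 17333576, 17339282, 17380388, 17406264, 17412540 and 17426980, none stronger than q = 0.000535 and 4 of them found in neither replicate. The last 3 peaks, at 17463317, 17467849 and 17472092, were each found in replicate 1 only, with q of 0.00262, 0.00148 and 0.000197. In all, 4 peaks of the tip were found in both replicates, 10 in replicate 1 only and 4 in neither.

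No strong peak lay at the borders of the stretches. At 4500 kb the last peak inside the left arm was at 4477087 to 4477488 (q = 0.000115) and the first beyond it at 4505127 to 4505250 (q = 0.000356). At 7000 kb the first peak inside the middle stretch was at 7012831 to 7012979 (q = 0.000199) and the nearest outside at 6959584 to 6959889 (q = 0.00636). At 13500 kb the last inside was at 13487150 to 13487238 (q = 0.00186) and the nearest outside at 13502907 to 13503121 (q = 0.00965). At 17200 kb the first inside was the tip peak at 17210778 and the nearest outside was at 17118615 to 17118870 (q = 5.46e-05). None of these overlapped a replicate 2 peak.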

How the data were processed

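Peaks came from 3 deposited lists whose source column names PeakSeq as caller, and the authors' q-value of each peak, a p-value adjusted for multiple testing, was used as deposited and not recomputed. Per the deposited sample table, the combined list was called on both ChIP libraries merged, and each replicate list on 1 ChIP library. That table sets the merged input beside every list, and whether a replicate was called against its own or the merged input is not stated. Replicates called against the same merged input would share that part of their q values. Reads of 36 bp were aligned to WS180, per the same table, and lists carried to WS220, per the file headers. The aligner and versions are not given in the sources used here. Counts of reads come from the authors' sample table as deposited.

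Stretches were set by peak midpoints. Chromosome length was the end of the last peak in any list, so a peak-free end is left out. Overlap meant at least 1 bp. Densities were compared by exact binomial tests given the lengths, and shares by Fisher's exact test, both two-sided. Intervals are exact (Clopper-Pearson or Poisson), and those of differences in share combine the exact intervals of both shares. Regions named are the 10 peaks with the lowest q and the 3 widest in each stretch, all of the right tip, the peaks at the borders, the fullest 100-kb windows and the longest gaps. The longest runs and fullest 0.5-Mb bins were chosen after their values were seen. The regions and tests were chosen with earlier results of these data known. The code was tested on simulated data. Peaks were not assigned to genes and no sequence is shown, since no genome of the build was used here. Tests used scipy 1.17.1, tables pandas 2.3.3 with numpy 2.4.6, and figures matplotlib 3.10.9, all under Python 3.11.15.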

Additional observations from a re-analysis of the deposited data

How the results depend on the processing

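Of 75 alternative values, 57 kept their direction and side of the threshold, 3 lost the call, 4 gained it and 11 changed direction. Alternatives of the ratio of middle to left arm against the other autosomes, of both overlap shares compared by position with the other autosomes, and those against a single chromosome, were chosen after the data were seen. With 1 replicate list alone, the density ratio of middle to left arm was 0.93 to 1.21, that of IV to the other autosomes 1.26 to 1.28, and that of the middle stretch to the other middles 1.01 to 1.05. Counted on overlap with 1 replicate list in place of both, the difference in share, middle minus left arm, was -7.18 points for replicate 2 and 0.34 points for replicate 1. With 1 replicate list alone, the difference in the share of peaks of 500 bp or wider was 0.73 to 7.49 points. With 300 bp or wider in the combined list it was 1.73 points. Against II and III only, the density ratio of IV was 0.95, and the differences in the share found in both replicates were -1.84 points for IV and -3.16 points for the middle stretch. Against chromosome I alone, the left arm's density ratio was 0.94 and the relative ratio of middle to left arm 0.81. The causes were not tested.

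No paired analysis was possible because each list is 1 set of calls and no test here sets numbered libraries of 2 groups against each other. Replicate 2 had the fewer usable reads, so absence of a call in its list is weak evidence on binding.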

Other observations

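No pair of neighbouring peaks lay closer than 200 bp in the combined list, 202 bp in the replicate 1 list or 204 bp in the replicate 2 list, and no peaks overlapped within a list. Of the 343 replicate 1 peaks of the middle stretch, 24 overlapped no combined peak, and of the 197 of the left arm 10 did not. In replicate 2 these were 0 of 151 in the middle stretch and 2 of 113 in the left arm. A combined peak overlapped several peaks of a replicate list in 8 cases of 453 in the middle stretch, in 3 of 272 in the left arm and in 0 of 18 in the right tip.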
